A study of Homo sapiens with 4 samples.

Results

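The Wnt feedback genes described here are 10 genes grouped as restraining Wnt signalling or as switched on by its effector beta-catenin, although the action of DKK3 is disputed: DKK1, DKK3, DKK4, NOTUM, AXIN2, NKD1, LGR5, RNF43, ZNRF3 and SP5. They were measured by 21 probe sets (a probe set is a group of short array probes read as one value), namely all probe sets that the platform annotation maps to exactly 1 of these symbols, out of 41091 probe sets for 19775 genes. The group was drawn up around DKK1 because DKK1 had been seen to be lower in treated cells, so the members' differences between treated and untreated cells are given as a description, without a test. The cells were AGS, a single human gastric adenocarcinoma line labelled as gastric epithelial, and AGS is known to carry an activating mutation of the beta-catenin gene CTNNB1. All cultures received new serum-containing medium: untreated cells received it alone, and treated cells with 10 µg/ml lipopolysaccharide of Helicobacter pylori (LPS, a glycolipid from the outer membrane of this stomach bacterium). RNA was taken 8 h later, from 2 untreated and 2 treated samples. The series' text speaks of 2 independent experiments, but the labels do not say that a replicate number marks one.

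In Wnt signalling, secreted Wnt proteins bind Frizzled receptors and the co-receptors LRP5 and LRP6, which stops a cytoplasmic destruction complex from marking beta-catenin for degradation. Beta-catenin then enters the nucleus and, with TCF/LEF proteins, raises transcription of target genes. Several targets encode brakes on the pathway, which makes their transcripts a common readout of its activity. In the stomach, Wnt signalling sustains the stem cells of the glands, some of which are marked by LGR5.

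Promoter sequence is shown for the 2 members whose windows held the core letters of a TCF/LEF site. Whether such matches go with a gene's level or difference was not tested. The RefSeq promoter table (GRCh38.p14) matched 3 of the 10 genes: DKK1, SP5 and RNF43. The motif searched was CTTTGA, on both strands (TCAAAG on the other), in the 250 bases before the gene start, and its matches are in capitals. No matches overlapped. The SP5 window, chr2:170715087-170715336 on the plus strand, held 3 matches, whose first bases lay 147, 109 and 83 bases before the start, and the DKK1 window, chr10:52314031-52314280 on the plus strand, held 2, at 149 and 95 bases.
SP5: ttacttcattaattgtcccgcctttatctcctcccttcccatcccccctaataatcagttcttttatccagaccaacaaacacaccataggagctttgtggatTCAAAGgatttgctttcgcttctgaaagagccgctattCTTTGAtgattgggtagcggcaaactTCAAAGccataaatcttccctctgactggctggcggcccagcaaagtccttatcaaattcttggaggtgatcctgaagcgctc
DKK1: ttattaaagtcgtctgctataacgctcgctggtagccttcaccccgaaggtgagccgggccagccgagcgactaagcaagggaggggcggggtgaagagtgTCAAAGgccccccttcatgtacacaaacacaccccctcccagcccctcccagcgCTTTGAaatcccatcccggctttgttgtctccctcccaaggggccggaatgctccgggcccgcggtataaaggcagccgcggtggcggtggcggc
Over all 35116 promoter windows of this length, 11.2% held at least 1 match, 0.977% at least 2 and 0.0655% at least 3. The windows of both RNF43 start sites held 0. A match describes the letters and does not show that a factor binds there.

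The arrays were alike as a whole: correlations between them across probe sets ran from 0.9935 to 0.9971, and their medians from 6.31 to 6.36. The 8 epithelial markers EPCAM, KRT8, KRT18, KRT19, KRT7, CLDN4, CDH1 and ELF3 all lay at or above the median over genes of 7.25, with EPCAM at 13.60 and 13.52 in untreated and 13.55 and 13.43 in treated cells. None of the 6 measured leukocyte markers and 1 of 9 fibroblast and endothelial markers, COL1A1, reached that median. The leukocyte list had array medians of 6.18 and 6.34 untreated against 6.08 and 6.36 treated, and the fibroblast and endothelial list 6.27 and 6.34 against 6.16 and 6.42.

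Across the members, DKK1 and LGR5 were the genes whose treated arrays lay clearly below the untreated ones on every probe set. SP5 was lower mainly on 1 treated array, RNF43 was higher by a small step, and AXIN2, NKD1, ZNRF3 and NOTUM differed little. DKK3 and DKK4 were dim. With limma over all 54613 probe sets, 0 passed the adjusted threshold of 0.05 in either direction, 0% higher and 0% lower, and so 0 of the 21 member probe sets. At an unadjusted p under 0.05, 704 probe sets were higher (1.29%) and 715 lower (1.31%). The treated arrays lay below both untreated arrays on 7 of the 21 member probe sets, against 11.9% of all probe sets, and above both on 3, against 17.6%. Probe sets of 1 gene share a transcript, and the members were chosen on this contrast, so nothing is read from these counts. The median difference, LPS minus untreated on the log2 scale, was -0.01 over the members and 0.02 over all probe sets. In size, 14 of the 21 member probe sets differed by less than 0.15. A difference of more than 0.25 in size was seen for 5 of the 21, against 5.56% of all probe sets. These counts carry the same limit of choice.

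**Figure D1:**
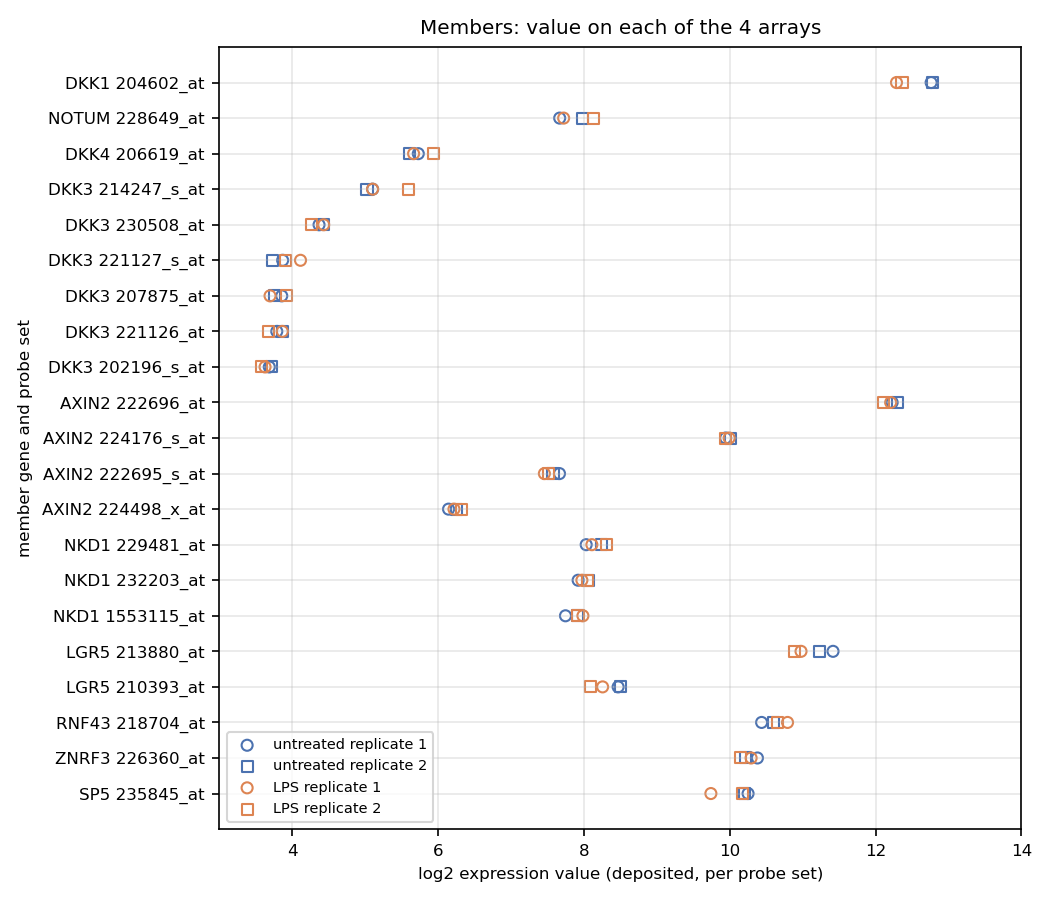
Deposited log2 value (horizontal axis) of each of the 21 member probe sets (rows) on each of the 4 arrays, untreated in blue and LPS-treated in orange, replicate 1 as circles and replicate 2 as squares. DKK1 and the brighter AXIN2 probe set lie above 12, the 6 DKK3 probe sets lie between 3.58 and 5.59, and the groups separate visibly for DKK1 and LGR5.

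Of the secreted inhibitors, DKK1 (dickkopf 1) binds LRP5 and LRP6 and keeps Wnt proteins from engaging them. Its single probe set, 204602_at, was brighter than 98.6% of all probe sets. It stood at 12.76 and 12.78 in untreated and at 12.29 and 12.36 in treated cells. Both treated arrays lay below both untreated arrays, and the distance between groups was several times that within either. The group means were 12.77 ± 0.01 and 12.33 ± 0.05 (SD, n = 2). Their difference was -0.45 ± 0.07 (SE), a treated to untreated ratio of 0.734. Here and below, SE is the moderated standard error from limma. Its variance draws on all probe sets, or all genes, in the fit, so it need not match the spread of these arrays. By replicate number, treated minus untreated was -0.48 for number 1 and -0.42 for number 2. Of the 761 probe sets at least as bright as DKK1, itself included, 2 had a difference this low or lower, DKK1 being among these 2. Over all brightness levels DKK1 ranked 205 from the lowest difference. The gene was chosen for this difference, so nothing is read from these ranks. As 1 probe set measures the gene, no second probe set could be set beside it.

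NOTUM encodes a secreted enzyme that removes the lipid from Wnt proteins and so disarms them. It was at 7.67 and 7.98 in untreated and at 7.72 and 8.13 in treated cells. The groups overlapped, with both arrays numbered 2 above both arrays numbered 1. The gap between the numbers was 0.31 in untreated and 0.41 in treated cells, larger than the difference of 0.10 ± 0.18 (SE) between groups.

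DKK4, a further dickkopf that inhibits through the same co-receptors, was at 5.73 and 5.61 in untreated and at 5.66 and 5.94 in treated cells. The groups overlapped, and the probe set lay below the median over probe sets of 6.33. DKK3, a divergent family member whose action on Wnt signalling is disputed, had 6 probe sets with means of 3.65 to 5.20, where the lowest value in the table was 3.19. Their differences ran from -0.09 to 0.28 and disagreed in direction. The value of 0.28, on 214247_s_at, came from LPS replicate 2 at 5.59, since the other arrays stood at 5.10, 5.02 and 5.10. At such levels a probe set may report background, and detection calls were not used here.

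Of the intracellular brakes, AXIN2 is the scaffold of the destruction complex that beta-catenin itself induces, and its brightest probe set, 222696_at, exceeded 98.1% of all probe sets. That probe set was at 12.23 and 12.30 in untreated and at 12.21 and 12.12 in treated cells. The treated arrays lay below the untreated ones by a gap of 0.02, and the difference was -0.10 ± 0.08 (SE). The other AXIN2 probe sets, at means of 9.97, 7.55 and 6.23, differed by -0.01, -0.13 and 0.07. On the probe set at 7.55 the treated arrays also lay below the untreated ones, by a gap of 0.06, and at 9.97 and 6.23 the groups overlapped. AXIN2 thus gave small values. The value above 0 came from its dimmest probe set, which lay below the median over probe sets of 6.33. Whether its difference is smaller than that of DKK1 was not tested, since both values come from the comparison that chose the group.

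NKD1 encodes a Dishevelled-binding antagonist. Its 3 probe sets had means of 7.89 to 8.17 and differences of 0.02 to 0.12. On the dimmest, 1553115_at, the treated arrays lay above the untreated ones by a gap of 0.01. Its difference was 0.24 for replicate number 1 and 0.01 for number 2. On the brightest, 229481_at, untreated cells were at 8.03 and 8.24 and treated cells at 8.11 and 8.31. Here too the replicate numbers stood further apart than the groups, by 0.20 in both untreated and treated cells.

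LGR5, RNF43 and ZNRF3 together set how many Frizzled receptors stay on the cell surface: RNF43 and ZNRF3 are membrane ubiquitin ligases that remove Frizzled, and LGR5 is a receptor for the R-spondins, which block these ligases. LGR5 on its brighter probe set, 213880_at, was at 11.42 and 11.23 in untreated and at 10.98 and 10.89 in treated cells. Both treated arrays lay below both untreated arrays, with a gap of 0.26. The difference was -0.39 ± 0.10 (SE), a ratio of 0.762, with -0.44 for replicate number 1 and -0.35 for number 2. The second probe set, 210393_at, was at 8.47 and 8.50 in untreated and at 8.26 and 8.09 in treated cells. Its difference was -0.31 ± 0.12 (SE), again without overlap of the arrays. Both LGR5 probe sets thus lay on the same side of 0, by like amounts.

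RNF43 was at 10.44 and 10.60 in untreated and at 10.79 and 10.65 in treated cells. The treated arrays lay above the untreated ones by a gap of 0.05, and the difference was 0.20 ± 0.11 (SE), with 0.36 for replicate number 1 and 0.05 for number 2. ZNRF3 was at 10.38 and 10.22 in untreated and at 10.29 and 10.14 in treated cells. Its groups overlapped, with a difference of -0.08 ± 0.11 (SE), and it came to 0.00 without untreated replicate 1.

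SP5, a zinc-finger transcription factor gene induced by beta-catenin, is the gene whose promoter window held 3 motif matches above. It was at 10.25 and 10.20 in untreated and at 9.74 and 10.18 in treated cells. LPS replicate 1 was low, and LPS replicate 2 lay 0.02 below the lower untreated array. The difference of -0.27 ± 0.16 (SE) became -0.05 when LPS replicate 1 was left out and -0.49 when LPS replicate 2 was, and so rests on the first of these arrays.

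**Figure D2:**
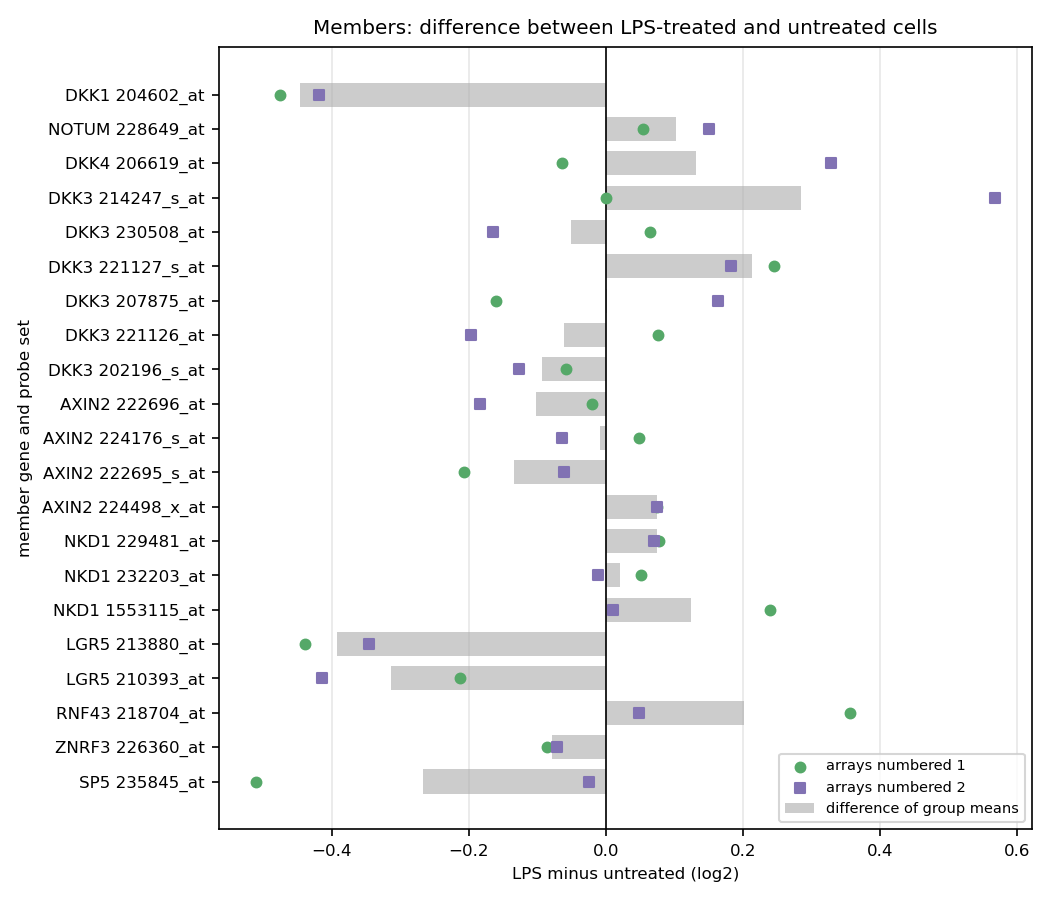
Difference between LPS-treated and untreated cells on the log2 scale for the 21 member probe sets: grey bars are differences of group means (n = 2 arrays each), green circles the arrays numbered 1 and purple squares the arrays numbered 2. DKK1 and both LGR5 probe sets lie between -0.48 and -0.21 for either number, while SP5 is at -0.51 and -0.02.

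**Figure D3:**
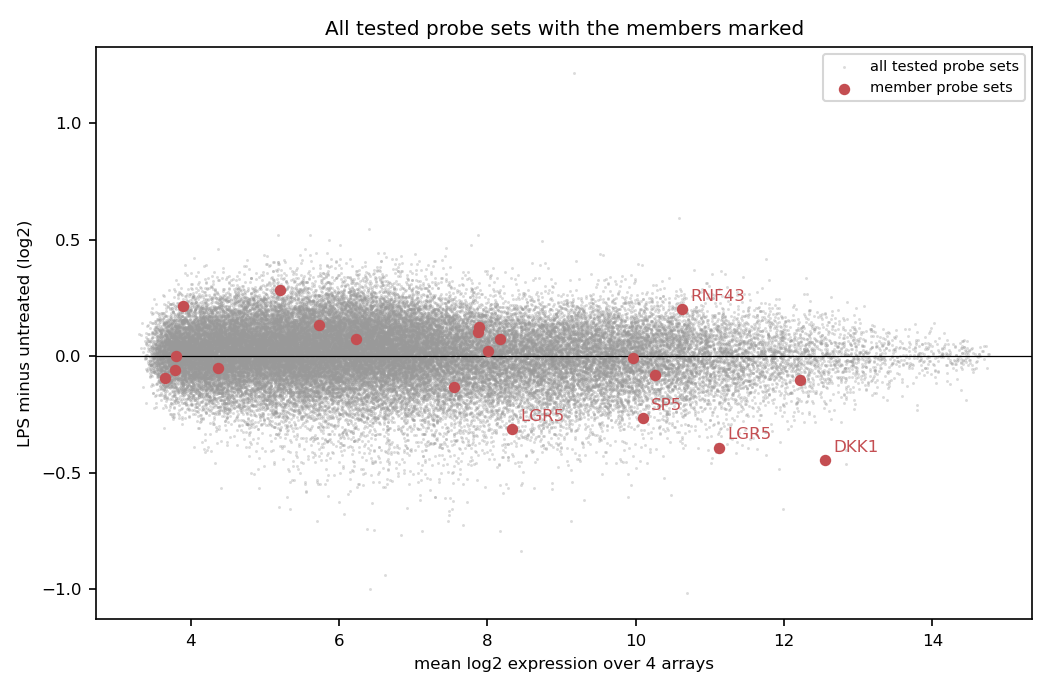
Mean log2 expression over the 4 arrays (horizontal axis) against the difference LPS minus untreated (log2, vertical axis) for all 54613 tested probe sets in grey, with the 21 member probe sets in red. DKK1 is at a mean of 12.55 and a difference of -0.45, and the brighter LGR5 probe set at 11.13 and -0.39. The members were chosen on this contrast, so nothing is read from their place in the cloud.

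Likeness to DKK1 was measured as the Euclidean distance between a gene's 4 array values and those of DKK1, each centred on its mean. Among the members, LGR5 was nearest at 0.19, followed by SP5 at 0.32 and AXIN2 at 0.37, and DKK3 was farthest at 0.79. Over all other genes the nearest were FILIP1L at 0.04, the kinase gene STYK1 at 0.05, LINC00630 at 0.06, the prostaglandin synthase gene PTGS2 at 0.07 and the glycosyltransferase gene B3GNT2 at 0.08. FILIP1L was at 9.17 and 9.19 in untreated and at 8.72 and 8.82 in treated cells. Its other probe sets differed by -0.38 and -0.16, those of B3GNT2 by -0.13 and -0.06, and that of PTGS2 by -0.94. The second probe set of STYK1 differed by -0.15, against -0.41 on the one used, and that of LINC00630 by -0.04, against -0.50. With 4 arrays the distance is a description only.

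The other genes of the pathway were taken in 7 lists of 89 genes, of which 84 were measured by a probe set of 1 symbol. With limma over 19775 genes, 0 passed the adjusted threshold, 0% higher and 0% lower, and 0 of these 84 did. At an unadjusted p under 0.05, 249 of all genes were higher (1.26%) and 310 lower (1.57%). The treated arrays lay above both untreated arrays for 19 of the 84 (22.6%), against 17.9% of all genes, and below both for 9 (10.7%), against 11.7%. The median difference was 0.04 over the 84 and 0.02 over all genes. The adjusted p was 1 (limma) for each gene named from these lists.

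Of the 17 measured Wnt ligand genes, 2 reached the median over genes, and differences ran from -0.08 to 0.19. WNT9A differed by 0.19 and WNT8B by 0.19, both at dim levels of 4.76 and 5.47 in untreated cells. The other WNT9A probe set differed by 0.04, with overlapping groups. Of the 11 receptor genes, the Frizzled gene FZD6 was at 10.93 and 10.75 in untreated and at 10.66 and 10.54 in treated cells, a difference of -0.24 ± 0.11 (SE). FZD9, another Frizzled gene, differed by 0.35 ± 0.11 (SE) from 5.81, below the median over genes.

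The R-spondin axis held 6 genes, and LGR4, the relative of LGR5 that also binds R-spondins, was the 1 of them at or above the median over genes. LGR4 was at 10.16 and 9.89 in untreated and at 9.71 and 9.43 in treated cells. Its groups did not overlap, and the difference of -0.45 ± 0.14 (SE) was the same size for both replicate numbers. Its dimmer probe sets, at means of 6.28 and 5.81, differed by 0.21 and 0.08, so the LGR4 probe sets disagree. LGR4 was the only 1 of the 84 genes with a difference as large as that of DKK1. RSPO3, which encodes an R-spondin, differed by 0.28 ± 0.10 (SE) from a dim 4.46.

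The 12 other inhibitor genes, which were the dickkopf-family genes DKK2 and DKKL1, WIF1, and those of the secreted Frizzled-related, sclerostin-family and Kremen kinds, had a median of 0.04, and 11 lay below the median over genes. SFRP4 differed by 0.13 and SOST by -0.14. The other SFRP4 probe set differed by 0.09, with overlapping groups. In the destruction complex, 11 of 13 genes lay at or above that median, and the list's median difference was -0.02. APC, the tumour suppressor scaffold, differed by -0.28 ± 0.12 (SE) on its brightest probe set and by -0.11 to 0.05 on the rest. TNKS2, a tankyrase that marks axins for degradation, differed by -0.25 ± 0.14 (SE) and by -0.28 to -0.06 on its other probe sets.

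Among the 13 nuclear effectors, CTNNB1 was at 11.88 and 11.72 in untreated and at 11.18 and 11.78 in treated cells. The groups overlapped. LPS replicate 1 was the low array, as it was for SP5 and the brightest TNKS2 probe set, whose groups did not overlap. The other CTNNB1 probe sets, at means of 6.92 and 7.22, differed by -0.39 without overlap and by 0.01. The co-repressor gene TLE3 was at 9.47 and 9.56 in untreated and at 9.83 and 9.76 in treated cells, a difference of 0.28 ± 0.10 (SE). The other 3 TLE3 probe sets differed by 0.23 to 0.25, each without overlap. Among the 12 other target genes, which include MYC, CCND1, CD44 and SOX9, the median was 0.02 and the range -0.13 to 0.32. The ephrin receptor gene EPHB3 was at 7.21 and 7.23 in untreated and at 7.51 and 7.56 in treated cells, a difference of 0.32 ± 0.11 (SE), but its dimmer probe set differed by 0.02. APCDD1, a membrane Wnt inhibitor, differed by 0.21 ± 0.11 (SE) from 5.66, below the median over genes. Its other probe set differed by 0.16, with overlapping groups.

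**Figure D4:**
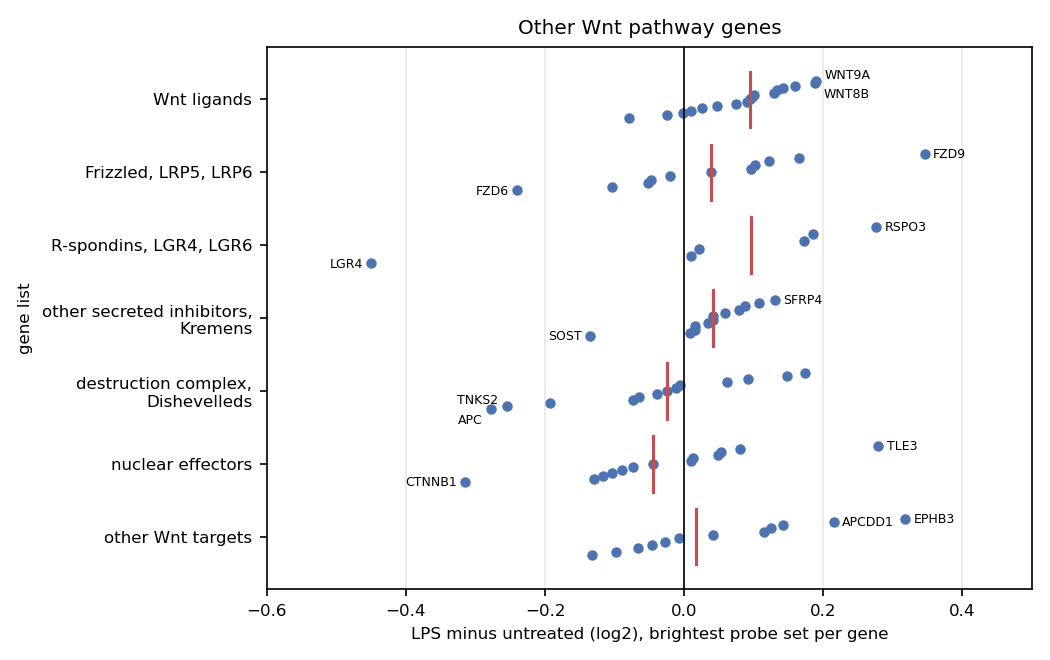
Difference LPS minus untreated (log2, horizontal axis) for the 84 measured genes of the 7 pathway lists, 1 blue point per gene on its brightest probe set, with the list median as a red line and the 2 genes named per list labelled. List medians lie between -0.04 and 0.10, and LGR4 at -0.45 is the lowest point.

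With 2 arrays per group, an exact permutation test of 1 probe set cannot give a p below 0.33. The limma p-values set a difference against the spread between these samples, moderated over all probe sets or genes. That spread may be technical. The brightness of a probe set also depends on its probes, so no order of transcript amounts between genes is read from these levels.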

How the data were processed

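Gene expression was measured on 4 single-channel Affymetrix arrays, 2 of untreated and 2 of LPS-treated AGS cells. The deposited values were log2 expression per probe set; per the submitters' processing notes, MAS5 and RMA were involved, in roles that are not stated. Settings are not given in the sources used here. They were used without further normalization. Of 54675 probe sets, 62 controls were left out. Platform annotation gave 41091 of the rest 1 symbol, 1801 several and 11721 none; 41037 of the first matched a current gene number.

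R 4.3.3 and limma 3.58.1 (lmFit, then eBayes with its mean-intensity trend, two-sided, without covariates) compared the groups over 54613 probe sets, and over 19775 genes, each represented by its brightest probe set, with Benjamini-Hochberg adjustment and a threshold of 0.05. The script was tested on simulated data. As alternatives, arrays were quantile normalized, probe sets filtered at median expression, and fits made with no trend, a replicate block, each array left out, and, for genes, the mean of probe sets and no _x_at or _s_at probe sets. Members and lists were chosen with earlier results of these data known. Named genes were every member, the 2 genes per list with the largest moderated statistic, and the 5 genes nearest to DKK1 in centred array values. Promoter sequences came from RefSeq (GRCh38.p14). Figures were drawn with matplotlib 3.10.9.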

Additional observations from a re-analysis of the deposited data

How the results depend on the processing

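The count of probe sets past the adjusted threshold was 0 in both directions under every alternative run, and that of genes was 0 except when an array was left out, where it ran from 0 to 2 higher and from 0 to 14 lower. Those calls came without LPS replicate 2. The spread is then taken from the untreated arrays alone, as it also is without LPS replicate 1, and the cause was not tested. None of the genes called was a member or one of the 84 pathway genes. The DKK1 difference was -0.45 with quantile normalization and -0.48 to -0.41 when 1 array was left out. The brighter LGR5 probe set ran from -0.48 to -0.30 and the dimmer from -0.40 to -0.23. Over the 21 member probe sets, 12 kept their sign without each array in turn and 9 did not, among them ZNRF3, NOTUM and DKK4; quantile normalization moved none by more than 0.03 and turned the sign of 1, a DKK3 probe set near 0. With the replicate number as a block, 0 probe sets and 0 genes passed (smallest adjusted p 0.685 and 0.292, limma), and the probe sets at an unadjusted p under 0.05 came to 1544 higher and 2035 lower. Deviations of same-numbered arrays had r = 0.54 across probe sets, which is a hint from the data, not the design. Dim members such as DKK3 are limited by background: a small difference there need not bound a change in transcript.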
